A study of Homo sapiens with 28 samples.

Results

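The 6 genes described are TLR4, LY96, CD14, TLR2, TLR1 and TLR6, which encode the lipopolysaccharide (LPS) receptor complex and the related Toll-like receptors of the cell surface. They were taken by symbol from 56809 symbols, and all 6 were found. The libraries came from clones of U937, a human monocytic cell line, in which a subunit of the transcription factor NF-kB had been knocked out, and the question put to the 6 genes is whether receptor messenger RNA differs between the clones in a way that could limit LPS sensing. The knockouts were p50 (gene NFKB1, 2 clones), p52 (NFKB2, 2 clones), p65 (RELA, 3 clones), cREL (REL, 2 clones) and RELB (RELB, 2 clones). They were set against CTR, 3 clones that had received non-specific guide RNAs. Each of the 14 clones gave one library with LPS at 500 ng/ml and one untreated library, all labelled 6 h, which makes 12 groups and 28 libraries. A clone descends from a single cell, so a genotype of 2 clones also carries whatever else sets those clones apart.

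LPS is lifted from aggregates by the serum protein LBP, handed to the membrane-anchored co-receptor CD14, and loaded into MD-2, the product of LY96. TLR4 with LPS-bound MD-2 pairs with another such unit and signals through the adaptors MYD88 and TIRAP at the membrane and TICAM1 and TICAM2 from endosomes, and NF-kB lies downstream of both. TLR2 recognises bacterial lipopeptides, with TLR1 for triacylated and TLR6 for diacylated forms, and CD14 also passes ligands to it. CD14 is a classical marker of mature monocytes.

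Depth was 12643438 to 22122428 estimated counts per library. Of 10 markers of the U937 line, 9 had a mean above 1 TPM (a level scaled to transcript length and library total). Markers of other cell types were low except the T and NK cell list, whose 10 genes summed to 105 to 499.9 TPM in knockout libraries and 280 to 529 TPM in CTR libraries, with LPS 203 to 499.7 TPM and untreated 105 to 529 TPM. NKG7 alone averaged 340 TPM of this, while CD3D was at 0 and CD3E, CD3G, CD8A and NCAM1 had means of 0.098 TPM or lower. RELA was at 3.20 to 8.19 TPM in p65 clones 2 and 3, but at 52.1 TPM with LPS and 43.7 TPM untreated in the clone labelled p65 replicate 1, against 23.2 to 38.3 TPM in CTR libraries. The main folds of p65 over CTR are therefore also given without that clone. RELB in RELB clones was at 11.4 and 19.3 TPM with LPS (CTR 18.4 to 26.2) and 2.48 and 5.83 untreated (CTR 3.80 to 14.1). REL in cREL clones was at 7.1 and 2.49 TPM with LPS and 8.61 and 2.91 untreated (CTR 10.4 to 14.7). With LPS, NFKB1 was at 6.83 and 4.10 TPM in p50 (CTR 10.3 to 14.5). The p50 range also held p52 replicate 1 (5.80), p65 replicate 1 (5.83) and cREL replicate 2 (4.91), and the remaining knockout libraries were at 7.80 to 14.6 TPM. NFKB2 with LPS was at 1.63 and 1.96 TPM in p52 (CTR 5.19 to 7.51). It was also below CTR in the other knockouts, at 0.971 TPM (p50) to 4.31 TPM (RELB). Untreated NFKB2 in p52, at 0.842 and 1.53 TPM, overlapped CTR (0.767 to 2.87). These RNA levels do not show whether the protein was lost. There were 3 sample batches by label, of which batch A had only knockout clones. Batch C held CTR replicates 1 and 3 and p65 replicates 2 and 3. The p50, p52, cREL and RELB clones therefore shared a batch with CTR only through CTR replicate 2, in batch B. Statements that their TPM lay apart from every CTR library thus also compare across batches. In bulk RNA, fewer cells of a type and less RNA per cell cannot be told apart. Nothing in the labels says that the clones of a genotype came from separate edits, so p-values measure the spread between these clones.

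In GENCODE release 29 on GRCh38, TLR4 occupies chromosome 9, 117704175 to 117724730, and CD14 chromosome 5, 140631728 to 140633701. TLR2 occupies chromosome 4, 153684070 to 153705702, and TLR1 (38790677 to 38856817) and TLR6 (38823715 to 38856817) overlap on the same strand of chromosome 4. The 300 bases around the start site (250 before and 50 after, RefSeq, GRCh38.p14) are shown for the 3 genes whose levels with LPS carry the results, TLR4 (chr9:117704153-117704452, plus strand), CD14 (chr5:140633126-140633425, minus strand) and TLR2 (chr4:153684030-153684329, plus strand), because the factors tested by knockout act at promoters. Each reads 5′ to 3′ on the gene's strand. Capitals mark the core of the site of PU.1, the myeloid factor encoded by SPI1 (GAGGAA or its reverse complement TTCCTC), and the Sp1 box (GGGCGG or its reverse complement CCGCCC).
TLR4: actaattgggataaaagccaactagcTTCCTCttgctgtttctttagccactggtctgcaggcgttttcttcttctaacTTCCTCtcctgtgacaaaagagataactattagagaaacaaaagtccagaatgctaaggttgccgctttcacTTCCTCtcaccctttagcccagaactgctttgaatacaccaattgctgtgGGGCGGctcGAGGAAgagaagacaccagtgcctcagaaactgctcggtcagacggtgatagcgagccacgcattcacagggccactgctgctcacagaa
CD14: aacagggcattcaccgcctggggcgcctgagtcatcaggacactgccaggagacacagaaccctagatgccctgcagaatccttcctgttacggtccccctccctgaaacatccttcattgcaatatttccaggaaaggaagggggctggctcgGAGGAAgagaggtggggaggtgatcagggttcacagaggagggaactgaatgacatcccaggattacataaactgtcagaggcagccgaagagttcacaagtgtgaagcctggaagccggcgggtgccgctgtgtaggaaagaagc
TLR2: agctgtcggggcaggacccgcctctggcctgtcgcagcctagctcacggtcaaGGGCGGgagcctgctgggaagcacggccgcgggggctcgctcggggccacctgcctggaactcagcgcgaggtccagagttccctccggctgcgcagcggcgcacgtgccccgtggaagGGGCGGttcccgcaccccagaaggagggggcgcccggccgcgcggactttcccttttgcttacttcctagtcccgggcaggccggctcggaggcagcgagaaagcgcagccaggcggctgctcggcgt
The TLR4 window holds 4 PU.1 cores and 1 Sp1 box, the CD14 window 1 PU.1 core and no Sp1 box, and the TLR2 window 2 Sp1 boxes and no PU.1 core. Among 35116 RefSeq promoters of the same length, 27.9% held the PU.1 core and 45% the Sp1 box on either strand. The NF-kB consensus, present in 11.3% of them, was in none of the 3 windows shown nor in that of TLR6. These letter matches describe the windows only.

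TLR4, the signalling receptor for LPS, was the highest of the 6 in TPM in 28 of 28 libraries. It ranged from 15.9 to 48.7 TPM with a median of 30.5, and made up 44.9 to 93.3% of the summed TPM of the 6. TLR2 followed at 1.78 to 34.6 TPM (median 9.63). LY96 was at 0 to 18.6 TPM (median 3.10), CD14 at 0 to 7.24 TPM (median 0.474), TLR1 at 0 to 1.96 TPM (median 0.556) and TLR6 at 0 to 1.55 TPM (median 0.0664). In the 27 libraries with any LY96, TLR4 exceeded LY96 by 1.55 to 197 times in TPM, with a median of 7.98. CD14 was listed at 0 in 6 libraries, TLR6 in 5, and LY96 and TLR1 in 1 each. All 6 passed the filter on low counts.

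**Figure D1:**
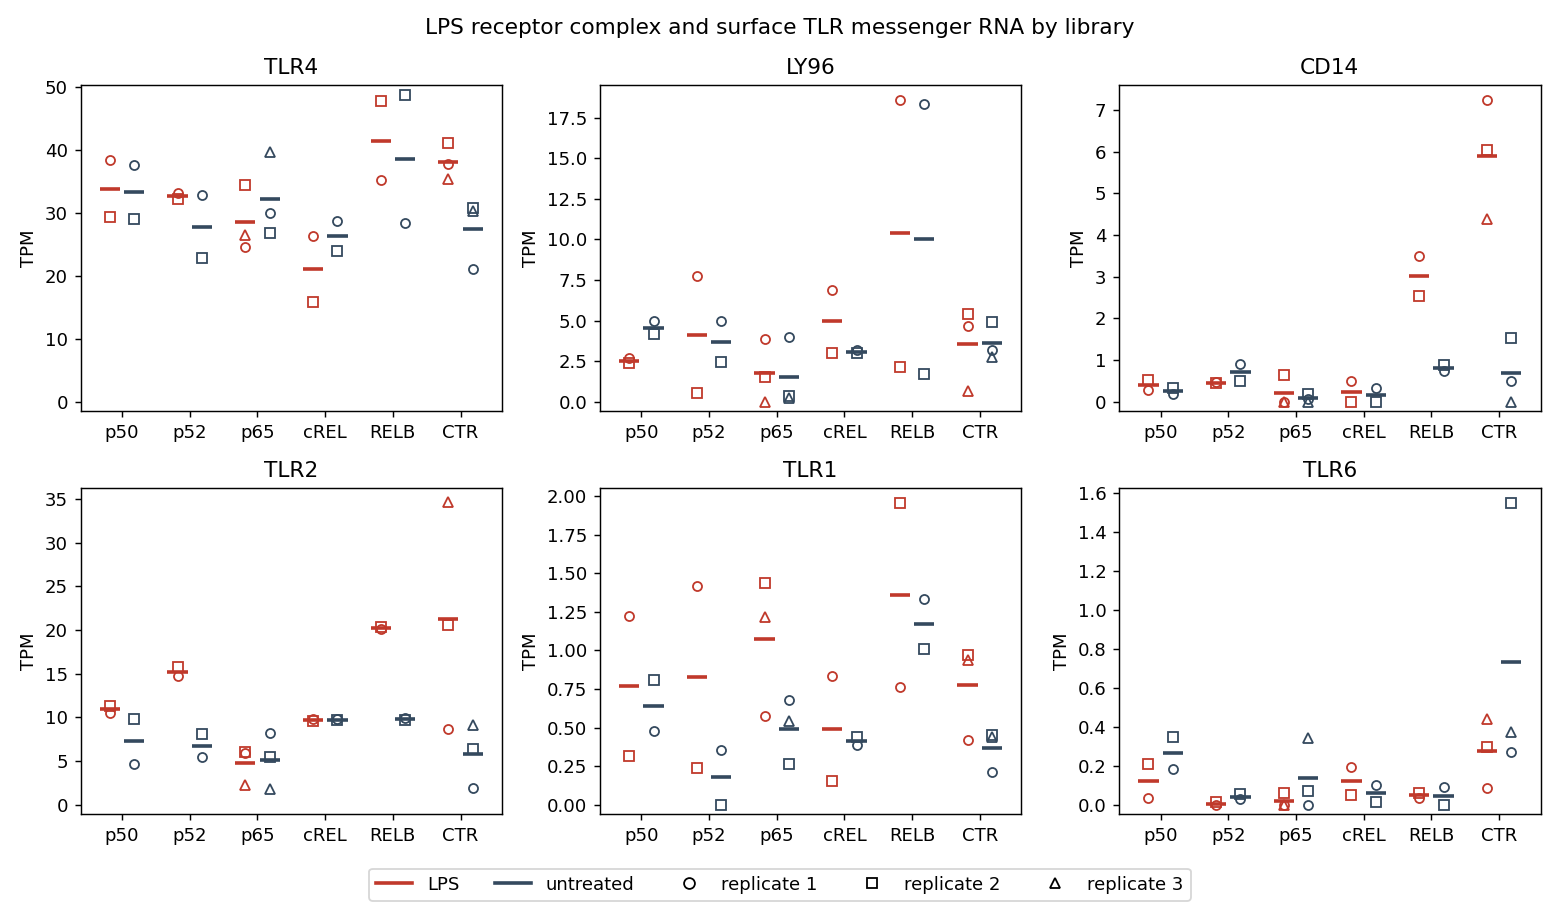
TPM of each of the 6 genes in every library, by genotype, with LPS (red) left of untreated (blue). Symbols mark the replicate number and bars the group mean, on a separate linear axis per gene. TLR4 lies between 15.9 and 48.7 TPM throughout, while CD14 stands above 2.5 TPM only in RELB and CTR libraries with LPS.

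In edgeR's quasi-likelihood test over 18624 genes, with a threshold of 0.05 on the Benjamini-Hochberg adjusted p, the 6 genes gave 0 calls in 25 comparisons. At an unadjusted p under 0.05 there were 4 of 36 values for LPS against untreated by genotype, 2 of 6 for LPS averaged over the genotypes, 8 of 36 for knockout against CTR untreated, 15 of 36 for knockout against CTR with LPS and 5 of 36 for the difference in LPS response. Over all genes the shares at that unadjusted level were 2.51%, 4.25%, 8.76%, 10.5% and 2.79% in the same order of families. DESeq2 called 1, 0, 0, 4 and 0 of these, limma voom with clone as a random effect called 3, 0, 0, 3 and 0, and edgeR with the 2 libraries of a clone as a block, which cannot compare genotypes at one treatment, called 1 in each of the 3 families that involve LPS against untreated. Calls were rare everywhere. Of all genes tested, the share called for LPS against untreated was 0.0161% (p50), 0.0215% (p52), 0.0268% (p65), 0.0107% (cREL), 0.129% (RELB) and 0.408% (CTR), and 0.403% for the average. For knockout against CTR untreated it was 0% in p50, p52 and cREL, 0.0537% in p65, 0.0107% in RELB and 0.0322% for the mean of the 5. With LPS it was 0.129% (p50), 0.0698% (p52), 0.993% (p65), 0.199% (cREL) and 0.0483% (RELB), and 0.838% for the mean. For the difference in LPS response it was 0.0161% in p65 and 0% for the other knockouts and the mean.

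Untreated TLR4 overlapped CTR in every knockout. It was at 37.6 and 29.1 TPM in p50, 32.8 and 22.7 in p52, 29.9, 26.8 and 39.7 in p65, 28.6 and 23.9 in cREL, and 28.4 and 48.7 in RELB, against 21.1, 30.8 and 30.3 TPM in CTR. Every untreated knockout library was above the lowest CTR library, and the RELB clones lay furthest apart. The largest fitted difference among untreated clones was that of p50, with a log2 fold over CTR of 0.48 ± 0.17 (SE, edgeR adjusted p = 0.684), and that of the mean of the 5 knockouts was 0.20 ± 0.13 (adjusted p = 0.688).

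With LPS, TLR4 was at 38.4 and 29.3 TPM in p50, 33.2 and 32.2 in p52, 24.5, 34.5 and 26.5 in p65, 26.3 and 15.9 in cREL, and 35.1 and 47.7 in RELB, against 37.7, 41.1 and 35.4 TPM in CTR. All libraries of p52, p65 and cREL were below every CTR library, and those of p50 and RELB overlapped CTR. Over all genes, TPM was lower without overlap in 8.52% for p52, 4.38% for p65 and 12.3% for cREL. Within batch B, TLR4 with LPS was at 38.4 TPM in p50, 33.2 in p52, 26.3 in cREL and 47.7 in RELB, against 41.1 in CTR. The log2 fold over CTR was −0.76 ± 0.17 in cREL (adjusted p = 0.0907 in edgeR, 0.00351 in DESeq2, 0.138 in limma voom) and −0.46 ± 0.14 in p65 (0.134, 0.0371 and 0.158 in the same order). DESeq2 called 1.23% of all genes for cREL and 3.49% for p65, and limma voom 1.42% for p65. Without p65 replicate 1 the p65 fold was −0.48 ± 0.17 (adjusted p = 0.279).

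Within the CTR clones TLR4 averaged 38.1 ± 2.87 TPM with LPS and 27.4 ± 5.45 TPM untreated (SD, n = 3 each), and was higher with LPS in each of the 3. All 3 LPS libraries were above all 3 untreated ones, as was so for 3.94% of all genes. The log2 fold was 0.52 ± 0.14, with an adjusted p of 0.175 in edgeR, 0.0547 with the clone block, 0.0351 in DESeq2 (0.832% of all genes called) and 0.0316 in limma voom (1.05%). In knockouts the log2 fold with LPS lay between −0.24 ± 0.17 (cREL) and 0.22 ± 0.17 (p52). The mean LPS response of the 5 knockouts minus that of CTR was −0.50 ± 0.16 (adjusted p = 1).

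LY96 (GRCh38 chromosome 8, 73991352 to 74029087) encodes MD-2, the part of the complex that holds LPS. It was covered by 0 to 76 counts per library, so its levels are coarse. The RELB clones stood apart from each other: clone 1 had 18.6 TPM with LPS and 18.4 TPM untreated, and clone 2 had 2.15 TPM with LPS and 1.70 TPM untreated. In p65 clones 2 and 3 it was at 1.53 and 0 TPM with LPS and at 0.348 and 0.201 TPM untreated, while the clone labelled p65 replicate 1 had 3.83 TPM with LPS and 4.0 TPM untreated. The CTR clones had 4.63, 5.41 and 0.673 TPM with LPS and 3.17, 4.93 and 2.78 TPM untreated. The RELB clones alone thus spanned most of the range seen, and both libraries of each RELB clone were alike. The fitted log2 fold of p65 over CTR was −1.13 ± 1.12 with LPS (adjusted p = 0.733) and −2.20 ± 1.16 untreated (adjusted p = 0.438). Without p65 replicate 1 it was −1.61 ± 1.39 with LPS (adjusted p = 0.75) and −3.37 ± 1.53 untreated (adjusted p = 0.392), and without CTR replicate 1 the fold with LPS was 0.05. LPS had no detectable effect on LY96 averaged over the genotypes (log2 fold −0.02 ± 0.55, adjusted p = 1, higher in 8 of 14 clones), with a standard error that leaves room for sizeable changes either way.

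CD14, the co-receptor that delivers LPS to MD-2, had more reads with LPS in CTR and RELB clones and stayed near 0 in the rest. With LPS it had 52 and 43 counts in RELB and 126, 105 and 88 in CTR, against 10 and 10 untreated in RELB and 9, 31 and 0 untreated in CTR. In TPM, RELB averaged 3.02 ± 0.675 with LPS and 0.803 ± 0.0975 untreated (SD, n = 2 each), and CTR averaged 5.88 ± 1.43 with LPS and 0.677 ± 0.782 untreated (SD, n = 3 each). In both genotypes all LPS libraries were above all untreated ones, as was so for 6.74% of genes in RELB and 3.94% in CTR. Summed over clones and per total count, the ratio of LPS to untreated was 4.32 in RELB (2.65 to 7.39). In CTR it was 7.25 (5.21 to 10.3). These exact 95% intervals take each read as a separate molecule and do not cover the spread between clones.

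In p50, p52, p65 and cREL clones CD14 had 0 to 11 counts in every library, with sums of 11, 17, 11 and 8 with LPS and 6, 17, 5 and 5 untreated, in that order of genotype. With LPS none of those 9 libraries exceeded 0.647 TPM. The RELB libraries lay above them at 2.54 and 3.50 TPM, and the CTR libraries above both at 4.38, 6.03 and 7.24 TPM. All 11 knockout libraries with LPS were below all 3 CTR libraries, which held for 0.354% of all genes (12.8% for p50 alone and 8.26% for RELB alone).

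The per-count ratio of knockout to CTR with LPS was 0.0609 (0.0301 to 0.11) in p50, 0.0856 (0.0492 to 0.139) in p52, 0.0345 (0.0171 to 0.0626) in p65, 0.0387 (0.0166 to 0.0772) in cREL and 0.521 (0.41 to 0.657) in RELB. The fitted log2 folds were −3.97 ± 1.62, −3.61 ± 1.54, −4.72 ± 1.27, −4.78 ± 1.62 and −0.96 ± 1.45 in the same order of genotype, with edgeR adjusted p of 0.412, 0.441, 0.0853, 0.3 and 0.886. For p65 the adjusted p was 0.00855 in DESeq2 and 0.012 in limma voom, and without p65 replicate 1 the fold was −3.99 ± 1.37 (edgeR adjusted p = 0.277). For the mean of the 5 knockouts the log2 fold was −3.61 ± 0.97 (adjusted p = 0.0879 in edgeR, 0.0155 in limma voom). That mean passed in edgeR without p65 replicate 1 (−4.10 ± 1.00, adjusted p = 0.041), without p65 replicate 2 (−5.41, adjusted p = 0.017) and without the batch term (−3.66, adjusted p = 0.0143), and was −1.72 (adjusted p = 0.923) without CTR replicate 2, the only CTR clone of batch B. With each clone left out in turn, the fold ranged from −5.80 to −1.71 in p50, −4.53 to −1.31 in p52, −10.1 to −3.99 in p65, −9.85 to −2.37 in cREL and −1.88 to 1.34 in RELB, and the highest value was the one without CTR replicate 2 except in p65. Within batch B, which holds 1 clone each of CTR and 4 knockouts, CD14 with LPS was at 0.277 TPM in p50, 0.464 in p52, 0.484 in cREL and 2.54 in RELB, against 6.03 TPM in CTR. Within batch C it was at 0.647 and 0 TPM in p65, against 7.24 and 4.38 TPM in CTR, and the fit on that batch alone gave −4.36 ± 1.54 (adjusted p = 0.511).

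The response of CD14 to LPS in CTR had a log2 fold of 3.12 ± 1.17, with an adjusted p of 0.692 in edgeR, 0.0765 with the clone block and 0.0218 in limma voom. The direct test of whether the response differed from CTR did not pass for any knockout. The log2 difference was −2.09 ± 2.11 in p50, −3.03 ± 1.87 in p52, −1.88 ± 2.07 in p65, −2.62 ± 2.19 in cREL and −0.82 ± 1.78 in RELB, each with an adjusted p of 1. The p65 difference was −1.73 ± 2.21 without p65 replicate 1 and ranged from −5.68 to −1.26 with each clone left out. The untreated libraries held 0 to 31 counts of CD14.

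**Figure D2:**
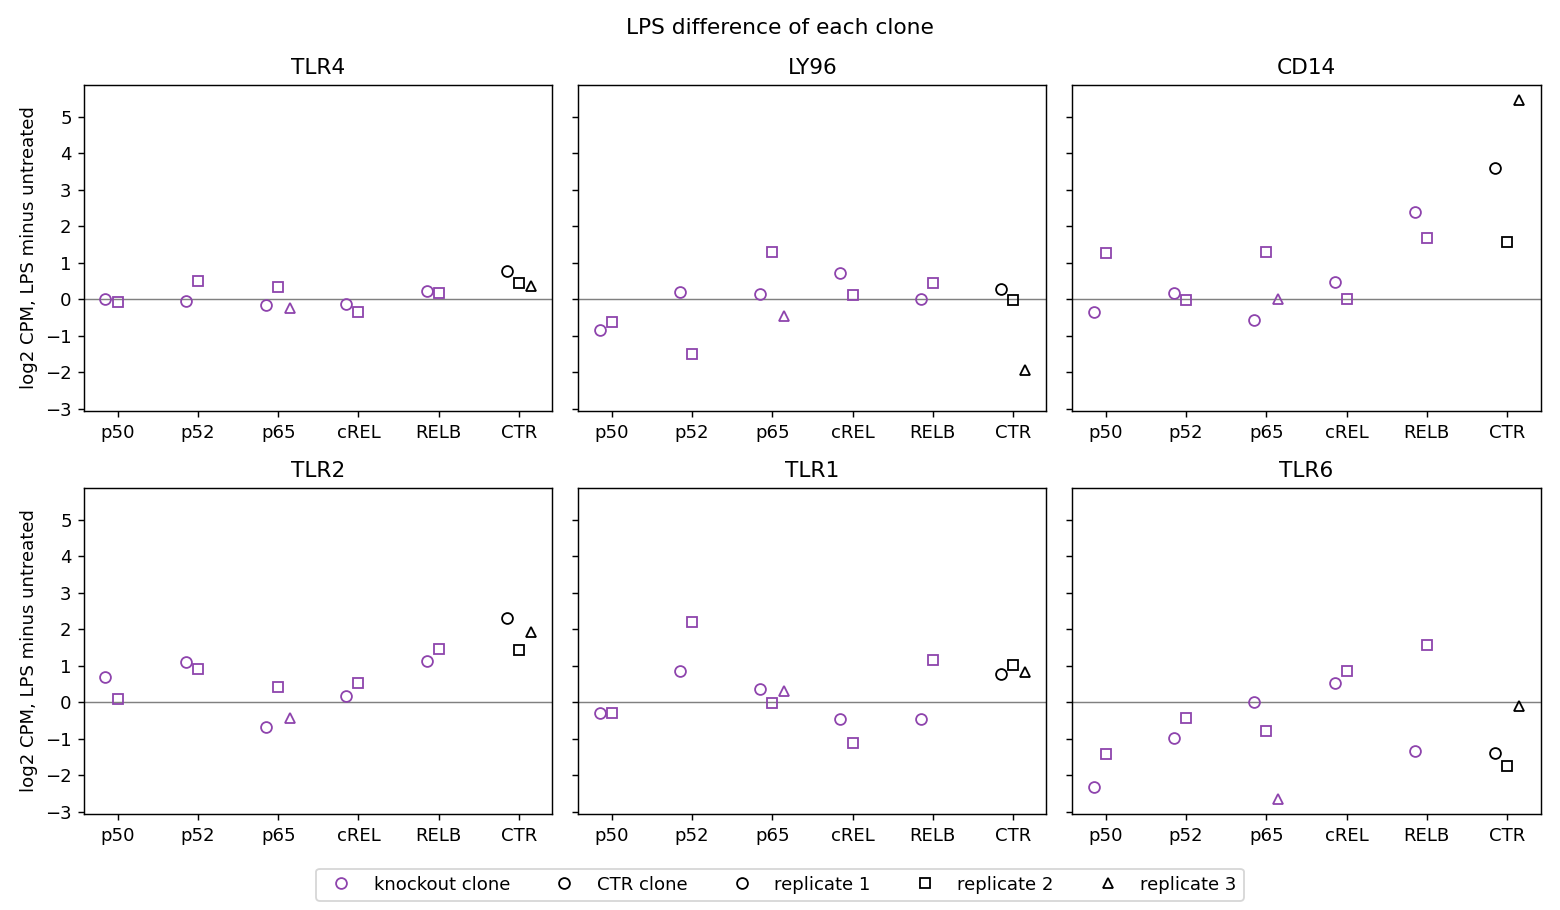
Difference between the LPS and the untreated library of each clone, in log2 CPM (counts scaled to the library total, prior count 2), for the 6 genes. Knockout clones are purple, CTR clones black, and symbols mark the replicate number. CD14 is above 1.5 in all RELB and CTR clones, and TLR2 is above 0 in 12 of 14 clones.

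TLR2, the lipopeptide receptor, passed the test for LPS against untreated once the 2 libraries of a clone were blocked. With LPS it was at 10.5 and 11.4 TPM in p50, 14.8 and 15.7 in p52, 5.95, 6.02 and 2.28 in p65, 9.78 and 9.59 in cREL, 20.2 and 20.3 in RELB, and 8.61, 20.6 and 34.6 in CTR. Untreated it was at 4.71 and 9.85 TPM in p50, 5.44 and 8.06 in p52, 8.19, 5.49 and 1.78 in p65, 9.75 and 9.67 in cREL, 9.92 and 9.74 in RELB, and 1.96, 6.35 and 9.07 in CTR. The CTR clones differed from one another in both conditions, so their LPS and untreated ranges overlapped, yet each clone was 3.25 to 4.39 times higher with LPS than untreated in TPM. In p50, p52 and RELB both LPS libraries were above both untreated ones, as were 13.1%, 16.7% and 6.74% of all genes. The same ratio was 2.03 and 2.08 in the RELB clones, 2.72 and 1.95 in p52, 2.22 and 1.15 in p50, 1.00 and 0.991 in cREL, and 0.726, 1.10 and 1.28 in p65.

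In the fit that compares clones as independent libraries, TLR2 did not pass in CTR (log2 fold 1.84 ± 0.65, adjusted p = 0.586). Blocked by clone it rose in CTR (1.88 ± 0.23, adjusted p = 2.57e-04), in which 1.27% of all genes were called, and averaged over the 6 genotypes (0.79 ± 0.11, adjusted p = 5.46e-04), in which 0.886% were called. It was higher in 12 of 14 clones on the log2 CPM scale. In RELB the block gave an adjusted p of 0.0509. The response in p65 minus that in CTR was −1.94 ± 0.91 (adjusted p = 1) without the block and −2.09 ± 0.34 (adjusted p = 0.0312) with it, where 0.0752% of genes were called. Without p65 replicate 1, and with no block, that difference was −1.56 ± 1.02 (adjusted p = 1). For the other 4 knockouts the difference from CTR without the block lay between −1.51 ± 1.00 (cREL) and −0.53 ± 0.99 (RELB), each with an adjusted p of 1.

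Untreated TLR2 had log2 folds over CTR between −0.58 ± 0.66 (p65, or −0.97 ± 0.77 without p65 replicate 1) and 0.19 ± 0.78 (cREL), none past the threshold, although in TPM both cREL and both RELB libraries were above all CTR libraries, as were 9.39% and 22% of all genes. With LPS every p65 library was below every CTR library in TPM, as was so for 4.38% of all genes. The log2 fold was −2.52 ± 0.67 (adjusted p = 0.084 in edgeR, 0.002 in DESeq2, 0.0148 in limma voom). Within batch C alone it was −2.66 ± 1.18 (adjusted p = 0.564), and without p65 replicate 1 −2.53 ± 0.79 (adjusted p = 0.22). RELB was at −0.47 ± 0.78 with LPS, p52 at −0.94 ± 0.79, p50 at −1.31 ± 0.80 and cREL at −1.33 ± 0.80, and in all 4 the TPM overlapped CTR.

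**Figure D3:**
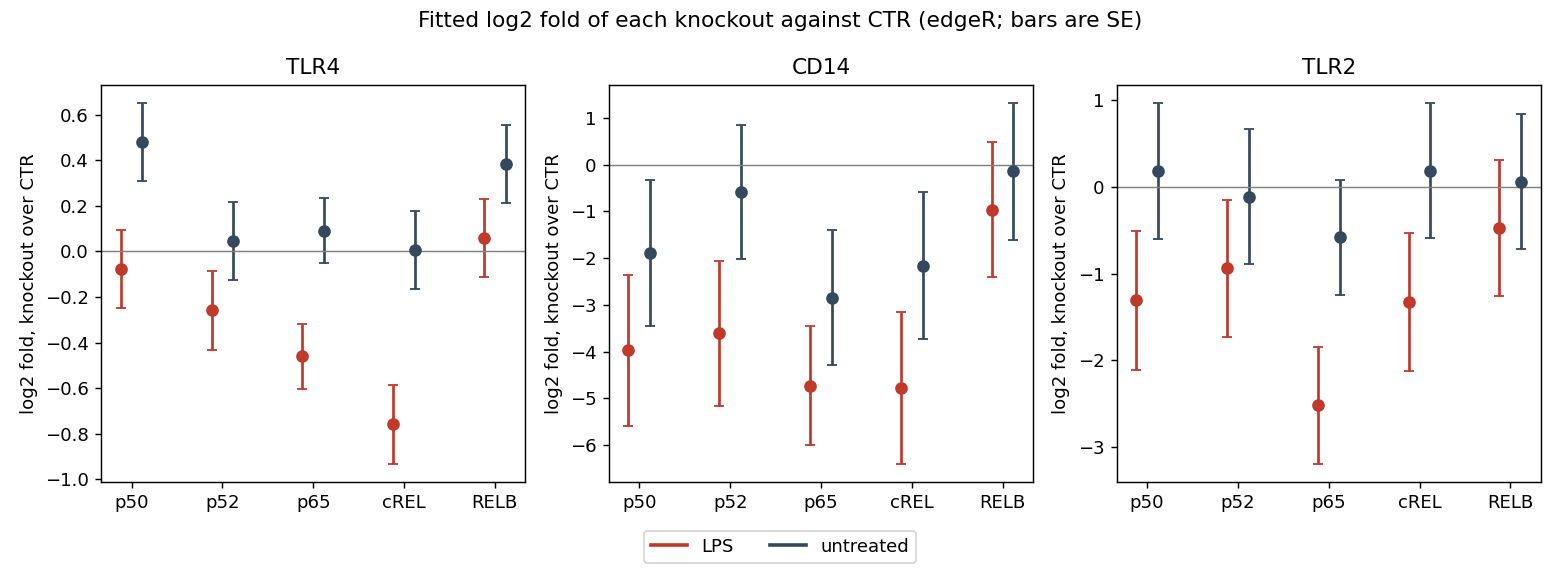
Fitted log2 fold of each knockout over CTR for TLR4, CD14 and TLR2, with LPS (red) and untreated (blue), from edgeR. Bars are the standard error and the vertical scale differs by gene. With LPS the folds of CD14 lie at −3.61 or lower in p50, p52, p65 and cREL and at −0.96 in RELB, and none passed the adjusted threshold.

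TLR1 and TLR6, the partners of TLR2, had few reads. TLR1 had 0 to 59 counts per library and TLR6 0 to 73. They are near-identical in part: 418 of their 31-base words are shared, 9.06% of those of TLR1 and 6.9% of those of TLR6, and 57 exonic bases overlap on the same strand, so reads can be split between them by the quantification. TLR1 was higher in RELB than elsewhere by mean TPM, at 0.763 and 1.96 TPM with LPS and 1.33 and 1.01 untreated, against 0.417, 0.967 and 0.935 with LPS and 0.21, 0.45 and 0.436 untreated in CTR. Its log2 fold in RELB over CTR was 0.57 ± 0.67 with LPS (adjusted p = 0.842) and 1.19 ± 0.70 untreated (adjusted p = 0.548). In counts TLR1 was higher with LPS in each CTR clone, at 13, 33 and 28 against 7, 14.4 and 13 untreated, and the log2 fold was 0.98 ± 0.57 (adjusted p = 1). TPM and counts can point apart for this gene, since its effective length ran from 465 to 2619 bases between libraries: p65 clone 2 had 8 counts and 1.44 TPM with LPS but 10 counts and 0.262 TPM untreated.

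TLR6 was seen mostly in CTR and p50 clones. Untreated counts were 12 and 27 in p50, 2 and 2 in p52, 0, 6 and 14 in p65, 4 and 1 in cREL, and 6.08 and 0 in RELB, against 19.3, 73 and 24 in CTR. All untreated libraries of p52, cREL and RELB were below all CTR libraries in TPM, as were 8.75% of all genes for p52, 9.06% for cREL and 5.51% for RELB. The log2 fold of the 5 knockouts averaged was −3.01 ± 0.84 untreated (adjusted p = 0.284). It was −3.47 ± 0.75 (adjusted p = 0.0432) without p65 replicate 1. The fit gave 1.89 without CTR replicate 2, the only CTR clone of batch B. In TPM the CTR libraries then left, at 0.269 and 0.373, were above all untreated libraries of p52, cREL and RELB. They rest on 19.3 and 24 counts and are both of batch C, which holds no clone of those knockouts, so that order compares across batches. How many of all genes had it was not counted. With LPS the counts were 1 and 7.77 in p50, 0 and 1 in p52, 0, 2 and 0 in p65, 7.08 and 4 in cREL, 1 and 4 in RELB, and 6, 22 and 25 in CTR. The log2 fold over CTR with LPS was −4.43 ± 1.33 in p65 (edgeR adjusted p = 0.126) and −2.98 ± 0.93 for the mean of the 5 knockouts (0.152). That mean passed in edgeR without p65 replicate 1 (−3.59, adjusted p = 0.0326) and without the batch term (−3.06, adjusted p = 0.0499). It was 1.36 without CTR replicate 2.

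By mean TPM over the 12 groups, CD14 ran from CTR with LPS and RELB with LPS, which differed from each other and from all below without overlap, through RELB untreated at 0.803 to p65 untreated at 0.0836, where neighbouring groups overlapped. TLR2 ran from CTR with LPS (21.3 TPM) and RELB with LPS (20.2), which overlapped, to p52 with LPS (15.2) and p50 with LPS (10.9). The last 2 were each apart from the groups next in rank. CTR with LPS, at 8.61 to 34.6 TPM, nevertheless overlapped both of them and some groups below. Then came 8 groups between 9.83 and 4.75 TPM whose neighbours overlapped. How many of all genes part by rank in this way was not counted. For TLR4 the order ran from RELB with LPS (41.4 TPM) to cREL with LPS (21.1), and every neighbouring pair overlapped. For LY96 and TLR1 the RELB groups came first, with overlaps between nearly all neighbours.

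Outputs of the LPS response can be read beside the receptor levels of the same clone. The mean log2 difference, LPS minus untreated, of 12 NF-kB output genes (NFKBIA, TNFAIP3, TNF, IL1B, CXCL8, CXCL2, CCL3, CCL4, ICAM1, SOD2, PTGS2 and NFKBIZ) was 2.11 and 1.97 in p50 clones, 2.42 and 2.45 in p52, 0.646, 1.88 and 1.56 in p65, 2.12 and 1.83 in cREL, and 3.84 and 3.99 in RELB, against 4.06, 3.46 and 4.67 in CTR. Lowest was the clone labelled p65 replicate 1 (0.646), in which RELA RNA was above that of CTR. The p50, p52, p65 and cREL clones were all below the RELB and CTR clones. Untreated TLR4 did not separate the clones in that way. It was at 22.7 to 39.7 TPM in the 9 clones of p50, p52, p65 and cREL, at 28.4 and 48.7 in RELB, and at 21.1 to 30.8 in CTR. LY96 spanned 0.201 to 4.95 TPM untreated in those 9 clones, 1.70 and 18.4 in RELB and 2.78 to 4.93 in CTR. CD14 untreated was at most 0.906 TPM in the 9 clones, 0.734 and 0.872 in RELB, and 0, 0.499 and 1.53 in CTR. CD14 with LPS was at 0 to 0.647 TPM in the 9 clones, against 2.54 and 3.50 in RELB and 4.38 to 7.24 in CTR. In RELB and CTR it is itself an RNA with more reads under LPS, so it is not a level set before the response. The grouping of the clones was taken from the outputs of these same libraries. How many of all genes part the clones in this way was not counted. Whether receptor level limits the output was not tested. All 12 output genes had a fitted fold above 0 with LPS in every genotype, with medians on the log2 scale of 1.87 (p50), 2.36 (p52), 1.38 (p65), 1.73 (cREL), 3.90 (RELB) and 3.63 (CTR). Those past the adjusted threshold of 0.05 in edgeR numbered 2 (p50), 3 (p52), 3 (p65), 1 (cREL), 11 (RELB) and 12 (CTR), where the shares of all genes called were the 0.0107 to 0.408% given above.

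**Figure D4:**
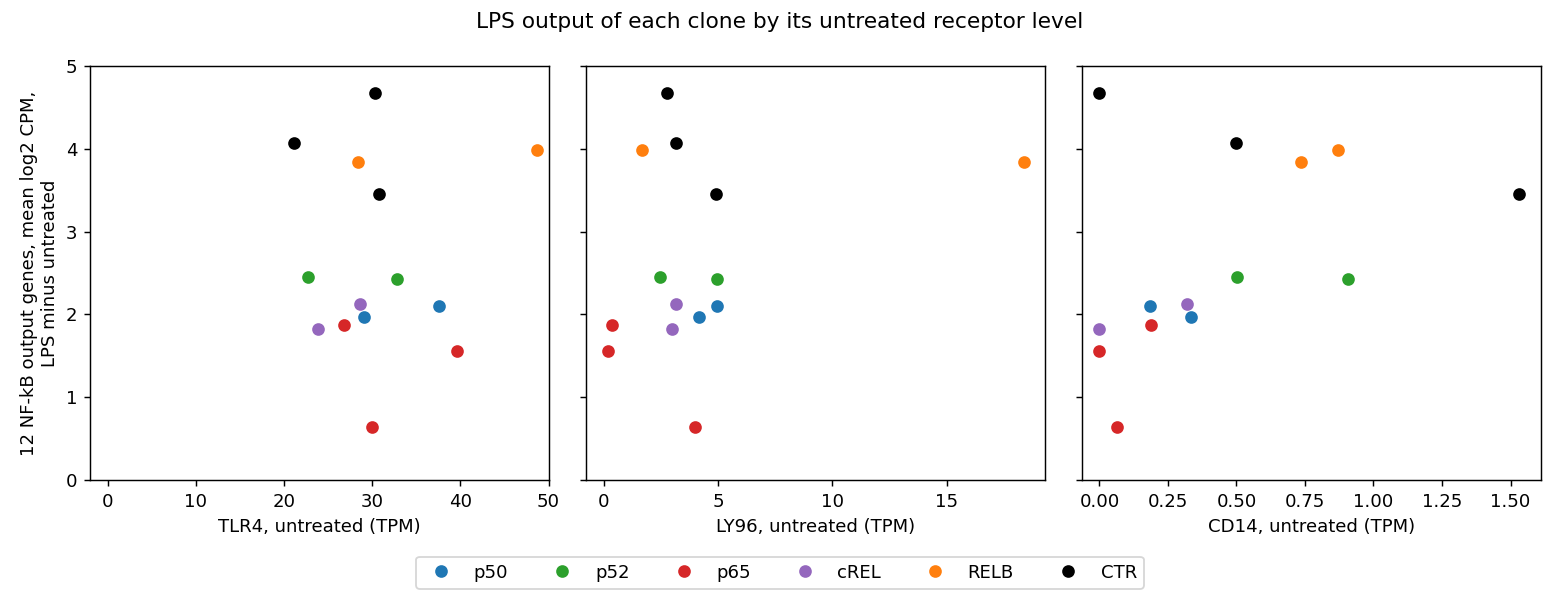
Mean log2 CPM difference (LPS minus untreated) of 12 NF-kB output genes in each clone, against the untreated TPM of TLR4, LY96 and CD14 in the same clone. Colours mark the genotype. Along the TLR4 axis the genotypes overlap, while the output separates RELB and CTR, at 3.46 to 4.67, from the other clones, at 0.646 to 2.45.

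The interferon outputs, which follow TICAM1 and endosomal TLR4, spread more widely within CTR than among all the knockout clones. The mean log2 difference of 11 tested genes was 0.547 and 0.604 in p50 clones, 0.777 and 0.787 in p52, 0.00709, 0.273 and 0.526 in p65, 0.494 and 0.302 in cREL, and 0.761 and 0.267 in RELB, against 3.01, 0.421 and 1.60 in CTR.

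The other genes of LPS sensing were read from lists by role. Of 12 adaptors and proximal kinases, 3 rose with LPS in CTR and 0 fell, with a list median log2 fold of 0.332 against 0.000316 for all genes tested. They were IRAK2, a kinase-like partner of MYD88 that sustains NF-kB signalling (1.39 ± 0.18, adjusted p = 2.16e-04), TRAF3, a ubiquitin ligase of the interferon arm (1.02 ± 0.22, adjusted p = 0.0439), and PIK3AP1, an adaptor linking TLRs to PI3-kinase (0.84 ± 0.17, adjusted p = 0.0207). The TRAF3 call was lost when any of 11 single clones was left out (adjusted p 0.0558 to 0.655) and that of PIK3AP1 when any of 4 was (0.0509 to 0.629), in both cases most of all without CTR replicate 3. Averaged over the genotypes, IRAK2 (0.88 ± 0.08, adjusted p = 1.7e-06) and TRAF3 (0.60 ± 0.10, adjusted p = 0.00518) rose, and TRAF3 did not pass the threshold without cREL replicate 1 (0.0705). IRAK2 also rose in RELB (1.60 ± 0.22, adjusted p = 9.89e-04), but not past the threshold without RELB replicate 1 (0.0544).

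IRAK2 averaged 40.8 ± 4.01 TPM in CTR with LPS and 15.8 ± 2.23 untreated (SD, n = 3 each). With LPS it fell in p65 against CTR (−1.19 ± 0.18, adjusted p = 0.00123), in cREL (−1.10 ± 0.22, adjusted p = 0.0396) and in the mean of the 5 knockouts (−0.74 ± 0.15, adjusted p = 0.0216). The cREL call was lost when any of 10 single clones was left out (adjusted p 0.0557 to 0.603, highest without cREL replicate 2) and that of the mean when any of 7 was (0.0509 to 0.348, highest without CTR replicate 2). PIK3AP1 fell in p65 with LPS (−1.14 ± 0.17, adjusted p = 0.00123). MYD88, the shared adaptor, and IRAK1, the kinase it recruits, did not pass in any of the 25 comparisons and averaged 101 and 103 TPM over the libraries.

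No call was made in the lists of LPS transfer and other LPS sensors (7 of 9 tested), other Toll-like receptors (4 of 6), the RP105 complex and extracellular modulators (5 of 6), and TLR folding and transport (10 of 10), at an unadjusted p under 0.05 in 15 of 175, 11 of 100, 1 of 125 and 14 of 250 values, against 6.06% over all genes. DESeq2 made 2 calls in the first list and none in the others, and limma voom none. The 2 calls are not set against a share of all genes here and are not read as a result about the list. The list medians of the log2 fold with LPS in CTR were 0.268, 0.866, −0.0301 and −0.026, against 0.000316 over all genes tested. HSP90B1, the chaperone that folds TLRs, averaged 644 TPM and RAB10, a GTPase that brings TLR4 to the surface in mouse macrophages, 335 TPM. CD36, a co-receptor of TLR2 with TLR6, averaged 411 TPM, and ITGB2, the integrin chain of complement receptor CR3, 261 TPM. LBP, CASP5, TLR8, TLR10 and IL1RL1 were at means of 0.0755 TPM or lower and were not tested, by reason of their low level.

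Since CD14 marks maturation, 18 monocyte and macrophage maturation genes were read beside it. Of the 15 tested none passed in any comparison (39 of 375 values at an unadjusted p under 0.05, 9 calls in DESeq2 and 1 in limma voom), and none of 7 promyelocyte granule genes did (13 of 175 values, no call in either tool). Over all genes 6.06% of values were under that unadjusted level. DESeq2 called 0.832% of all genes for LPS in CTR, and with LPS 1.23% for cREL and 3.49% for p65 against CTR. The comparisons of the 9 calls are not given here, so the calls are not read as a result about the list. In the mean of the 5 knockouts over CTR with LPS, 12 of the 15 maturation genes had a fold above 0 (list median 0.421 on the log2 scale) and so did 7 of the 7 granule genes (0.776), against a median of −0.0424 over all genes tested. By knockout the maturation median was highest in RELB, at 1.02 (13 of 15 above 0), and below 0 only in p65, at −0.145 (6 of 15). The summed TPM of the 18 genes with LPS was 3619, 1044 and 1434 in CTR, and 1120 to 2464 in the knockouts. The CTR range held every knockout library with LPS, but its top is CTR replicate 1 alone. All knockout libraries with LPS except p50 replicate 2, p65 replicate 1 and cREL replicate 2 were above CTR replicates 2 and 3. The part of maturation in the CD14 levels was not tested.

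Over 28 libraries, the genes whose log2 CPM was most like CD14 were SQSTM1 (Pearson r = 0.87), IL4I1 (0.862) and PLEKHO2 (0.853), among 9982 genes at a mean of 5 CPM or more. For TLR2 they were ZC3H12C (0.768), SOD2 (0.759) and ACAP2 (0.743), for TLR4 ERBIN (0.813), BACH1 (0.764) and MXD1 (0.743), and for LY96 SLC41A2 (0.782), ACYP2 (0.763) and ACTR10 (0.762). Near TLR1 were SPAG9 (0.733) and BTG1 (0.681), and nearest TLR6 were RSF1 (0.696), LZIC (0.691) and PRRC2C (0.69). These values describe libraries that share clones, batches and depth.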

How the data were processed

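Gene tables deposited by the authors were used: estimated counts per gene symbol (not scaled to a common total), TPM scaled by the authors to a common total, and a table of each gene's effective length, in bases, for every library. Salmon 0.11.3, FastQC 0.11.7 and build GRCh38 are named in the submitters' processing notes; which annotation and read filters were used is not given in the sources used here. Polyadenylated RNA was primed with oligo(dT), amplified by PCR and read from both ends without strand marking, per the labels. All 56809 symbols matched GENCODE 29. The reads carry no molecular identifiers, so PCR copies cannot be told from separate molecules. The intervals on counts can therefore be too narrow even for counting error, and they leave out the spread between clones.

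R 4.3.3 and edgeR 4.0.16 were used on counts rounded to whole numbers: filterByExpr (minimum count 10, minimum total 15; 18624 genes kept), TMM scaling, and a robust quasi-likelihood fit of 12 groups with batch as an additive term (14 residual degrees of freedom, biological coefficient of variation 31.7%). The 25 comparisons were LPS in each genotype and averaged, knockout against CTR and their mean with and without LPS, and differences in LPS response. A gene was called at an adjusted p under 0.05 over all genes of a comparison. On counts simulated for the CTR comparison with LPS (16967 genes), 90 to 100% of genes changed by a log2 fold of 2 or 3 were called. The simulation gave every gene the same spread, had no clone or batch effects, and changed only genes above a minimum mean count. It therefore does not show how often changes in genes of few reads, such as LY96, CD14, TLR1 and TLR6, would be called. The named genes are the 6 members everywhere, up to 4 passing and up to 2 other highest members of each fixed list, and the 3 genes most like each member, of which 1 is not reported here. The members, lists and comparisons were chosen with earlier results of these data known.

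An untreated and an LPS library of one genotype and number were taken, by their labels, as 1 clone. Their deviations from the group means correlated at 0.203 to 0.441 in all 14 clones. Both libraries of a clone also share a batch, so this cannot tell a shared clone from a shared batch. In genotypes of 2 clones both give the same value, so these are not 14 separate checks. The fit with clone as a block is given where it changes a call. Alternatives were DESeq2 1.42.0 (Wald test, and its size factors in edgeR), limma 3.58.1 voom, no filter, no batch term, an effective length offset, batch C alone and each clone left out. No 2 libraries were identical.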

Additional observations from a re-analysis of the deposited data

Results flagged for a closer look

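The LPS minus untreated difference in log2 CPM had one sign in every cREL clone and the opposite sign in every CTR clone for TLR4 (means −0.244 in cREL and 0.53 in CTR, a difference of −0.774). The fitted difference in response was −0.76 ± 0.22, with an adjusted p of 1. The same held for TLR1 in p50 against CTR (−0.298 and 0.873, a difference of −1.17, fitted −1.32 ± 0.92, adjusted p = 1) and in cREL against CTR (−0.792 and 0.873, a difference of −1.66, fitted −1.95 ± 0.94, adjusted p = 1). It also held for TLR6 in cREL against CTR, with the signs turned round (0.698 and −1.09, a difference of 1.79, fitted 2.15 ± 1.74, adjusted p = 1). Of all genes tested, 6.86% had opposite signs in every clone in this way for p50 and 6.83% for cREL. The TLR1 and TLR6 cases hold in CPM but not in TPM, where LPS over untreated was 2.57 for TLR1 in p50 replicate 1, 2.14 for TLR1 in cREL replicate 1 and 1.19 for TLR6 in CTR replicate 3. Each case sets 2 knockout clones against 3 CTR clones, TLR1 and TLR6 rest on at most 73 counts per library, and no difference passed the fit over all genes.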

How the results depend on the processing

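The count of members called was 0 in the main test of every family of comparisons. For LPS against untreated it was 2 without the filter on low counts, 1 with DESeq2, 3 with limma voom and 1 with the replicate block, and for LPS averaged over genotypes 2 without the filter and 1 with the block. For knockout against CTR untreated it was 2 without the filter and 0 to 1 when each clone was left out (TLR6, without p65 replicate 1). For knockout against CTR with LPS it was 11 without the filter, 4 with DESeq2, 3 with limma voom, 2 without the batch term, 1 with the effective length offset and 0 to 2 when each clone was left out. The difference in response gave 1 without the filter and 1 with the block. Besides TLR2, the replicate block changed no member's call. Dropping the filter also raised the share of all genes called, to 2.6% for p65 against CTR with LPS. For the mean of the knockouts over CTR with LPS, limma voom called 0.838% of all genes. No such share is given for the other comparisons without the filter. None is given without the batch term, with the effective length offset or with a clone left out. Calls of members in those fits, wherever given, are therefore not set against all genes. They are not read as results about the members. The causes of the changes in these counts were not tested.

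Some fitted log2 folds reversed, none of them called in the main test. Of these, TLR6 in the mean of the knockouts passed in some alternatives, as given above and in the TLR6 results. CD14 under LPS was −0.54 to 1.70 in p50, −0.046 to 0.17 in p52 (−0.57 with the effective length offset), −2.24 to 1.68 in p65 and 0 to 0.59 in cREL when each clone was left out. TLR2 under LPS in p65 was −0.59 to 0.23, and 0.25 in batch C alone. TLR6 against CTR untreated was −5.03 to 1.63 in p52, −5.20 to 2.25 in cREL, −8.38 to 2.26 in RELB and −3.92 to 1.89 in the mean of the knockouts, and with LPS −7.10 to 0.43 in p52 and −3.63 to 1.36 in the mean, each highest value being without CTR replicate 2, the only CTR clone of batch B. CD14 in RELB against CTR with LPS was −1.88 to 1.34. CD14 in p65 against CTR with LPS passed without p65 replicate 2 (−10.1, adjusted p = 0.0231), and TLR2 there passed without CTR replicate 1 (−2.91, adjusted p = 0.032) and with the length offset (−2.44, adjusted p = 0.0407). Depth limits LY96, CD14, TLR1 and TLR6, whose lowest libraries hold 0 counts, while TLR4 had at least 1168.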
